A study of Mus musculus with 8 samples.

Results

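The genes described here are imprinted genes, which are transcribed mainly from the copy inherited from 1 parent. A list of 52 mouse genes with a known imprint was matched by gene symbol to the 13558 transcripts of the deposited table, and 47 were found. The other 5, namely Asb4, Rasgrf1, Nap1l5, Kcnq1 and Rtl1, had no row, and the table holds only transcripts whose higher group mean was at least 10. Of the 47, 23 are known to be expressed from the paternal copy, 19 from the maternal copy, and 5 in a way that depends on the isoform (Grb10, Gnas, Blcap, H13 and Inpp5f).

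The study asked how loss of Trim71, an RNA-binding protein and ubiquitin ligase of early embryonic cells, changes the mRNAs of mouse embryonic stem (mES) cells. All cells were male C57BL/6 mES cells kept in serum and LIF, homozygous for a Trim71 allele with a floxed last exon (Trim fl/fl), and carried the tamoxifen-inducible recombinase Rosa26-CreERT2. The 4 WT libraries came from the conditional cells, given solvent per the study's methods, and the 4 KO libraries (Trim-/-) from cells given 500 nM 4-hydroxytamoxifen for 2 days and then grown for 7 days or longer. Cells were sorted for the surface antigen SSEA-1 before harvest, and they belonged to 2 clones: E3 gave KO replicates 1 to 3 and WT replicates 2 and 3, and clone 1 gave KO replicate 4 and WT replicates 1 and 4. Days 3, 4 and 5 each held 1 KO and 1 WT library of the same clone, KO replicate 1 was of day 2, and WT replicate 1 was of day 1. No label says that the libraries of a group were separate cultures, so p-values measure the spread between these libraries. As the strain is inbred and reads were summed per transcript, the parental copy behind a read is not known, and every value is a sum over both copies.

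In an imprinted domain, a stretch of DNA called the imprinting control region carries methylation on 1 parental copy only, set in the egg or the sperm and kept through the cell divisions of the embryo. Many domains hold a long noncoding RNA that is transcribed from 1 copy, and in several of them this RNA silences protein-coding neighbours on the same chromosome. Paternally expressed genes as a group are known for promoting growth of the embryo and maternally expressed genes for restraining it, and ES cells in culture are known to lose or gain imprints.

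A few promoter sequences are shown because the genes behind them carry the results below. Each is a RefSeq window on GRCm38.p6, the build of the files (mm10), from 250 bases before to 50 bases after an annotated start, written 5′ to 3′ on the strand of the gene. In the first 3, capitals mark the hexamer TGCCGC on either strand, the core of the sequence bound by ZFP57, a zinc-finger protein that keeps methylation at imprinting control regions. In the last, capitals mark the 163 bases between the divergent starts of Peg3 and Usp29, which are transcribed away from each other. The window of Meg3 lies at chr12:109540746-109541045 (plus strand), Nnat at chr2:157559828-157560127 (plus), the start shared by Snurf and an isoform of Snrpn at chr7:60005150-60005449 (minus), and Usp29 at chr7:6730333-6730632 (plus).
Meg3: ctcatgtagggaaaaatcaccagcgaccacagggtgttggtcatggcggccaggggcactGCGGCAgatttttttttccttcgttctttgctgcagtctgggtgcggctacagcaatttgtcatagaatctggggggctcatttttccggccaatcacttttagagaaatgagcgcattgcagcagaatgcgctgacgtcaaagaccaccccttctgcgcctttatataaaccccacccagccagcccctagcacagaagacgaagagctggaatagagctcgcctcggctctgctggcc
Nnat: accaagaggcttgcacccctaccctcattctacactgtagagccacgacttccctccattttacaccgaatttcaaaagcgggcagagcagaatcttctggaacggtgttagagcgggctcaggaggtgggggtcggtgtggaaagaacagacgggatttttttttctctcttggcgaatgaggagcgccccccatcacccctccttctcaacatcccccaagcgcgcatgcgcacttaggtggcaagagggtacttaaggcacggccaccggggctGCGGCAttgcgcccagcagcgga
Snurf and Snrpn: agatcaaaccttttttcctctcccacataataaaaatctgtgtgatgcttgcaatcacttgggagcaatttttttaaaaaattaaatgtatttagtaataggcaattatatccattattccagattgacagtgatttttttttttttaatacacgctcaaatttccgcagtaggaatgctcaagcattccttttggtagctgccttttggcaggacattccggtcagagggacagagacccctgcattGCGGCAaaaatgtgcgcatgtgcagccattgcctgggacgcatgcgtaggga
Usp29 and Peg3: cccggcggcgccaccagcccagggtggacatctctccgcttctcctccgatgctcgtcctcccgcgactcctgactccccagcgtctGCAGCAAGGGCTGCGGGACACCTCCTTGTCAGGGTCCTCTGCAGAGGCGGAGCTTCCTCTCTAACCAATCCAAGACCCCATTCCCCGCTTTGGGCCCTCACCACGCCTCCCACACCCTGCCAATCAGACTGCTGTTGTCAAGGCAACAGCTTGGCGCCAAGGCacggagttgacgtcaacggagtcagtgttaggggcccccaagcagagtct
Windows were given for 42 of the 52 listed genes, and 14 of these genes (33.3%) held the hexamer in at least 1 window, against 13.1% of all 27025 genes with a window and 22.5% of the genes of the table that had one. The shares were 7 of 19 paternally and 5 of 15 maternally expressed genes of the table. Snurf and Snrpn were counted as 2 genes in these shares but held the hexamer in the same window. Mest held 2 matches in each of its windows. These counts describe letters in a window, and a window of 300 bases at a start need not hold the control region of its domain.

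The targeted gene was read first. Trim71 stood between 247 and 793 in the KO libraries and between 1988 and 2782 in the WT libraries, without overlap (log2 fold change -2.39, SE 0.35, adjusted p = 0.294 by limma, exact permutation p = 0.0286, the smallest that 4 against 4 libraries allow). The reads left can include exons that were not deleted. All 10 ES cell markers were present, with summed values of 74742 to 100076 in KO and 67802 to 87483 in WT. Of 10 fibroblast markers 5 were in the table (Col3a1, Lum, Dcn, Postn and Twist2 were not), summing to 166 to 321 in KO and 167 to 295 in WT. Primitive endoderm markers (9 of 11, without Afp and Ttr) summed to 4427 to 6461 in KO and 2289 to 5644 in WT, trophoblast markers (9 of 10) to 2576 to 4248 and 2899 to 3562, neural markers (5 of 7) to 800.4 to 1049 and 965 to 1618, and mesoderm markers (4 of 7) to 69.0 to 83.7 and 55.3 to 103. Gene by gene, the median log2 fold change of the 9 primitive endoderm markers was 0.74 (0.57 with day as a block) and that of the 9 trophoblast markers 0.31 (0.091 with the block), with 0 past the criterion by limma in either list, and 1 at an unadjusted p under 0.05, the trophoblast factor Eomes (0.51, adjusted p = 0.527). Cdx2, another trophoblast factor, was above every WT library in every KO library, at 19.6 to 35.9 against 1 to 14.8. The 1, in WT replicate 1, is the floor of the deposited values, and 5.48% of all transcripts were separated in this direction. Of the 9 trophoblast markers 7 were positive and 2 negative, namely Gata3 (-0.20) and Tfap2c (-0.15). With the block Cdx2 passed the criterion at 0.91, and the endoderm markers Pdgfra (-0.68) and Dab2 (-0.75) passed it as lower. Gata6, Sox17 and Foxa2, also endoderm markers, were at the floor of 1 in WT replicate 1, of clone 1. In clone E3 Gata6 was at 44.7 and 57.5 in KO replicates 2 and 3 and at 43.9 and 57.2 in WT replicates 2 and 3. On day 5, in clone 1, it was at 125 in KO and 8.20 in WT. Like Gata6, Gata4, Sox7 and Lama1 were higher in KO on each of days 3, 4 and 5. Col4a1, Dab2 and Pdgfra were lower in KO on each of these days, and Sox17 and Foxa2 were mixed. Since several imprinted genes are strongly transcribed in those lineages, their values belong beside the results, and their part in them was not tested. In a bulk library fewer expressing cells and less RNA per cell cannot be told apart.

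Levels of the imprinted genes covered a wide range. WT means of the normalised read count, the deposited value, reached 100 or more for 39 of the 47 and 1000 or more for 16. Per kilobase of annotated exon, the highest WT levels after Snurf, whose annotated exons span only 216 bases, were those of Cd81 (1600 per kb), Peg10 (1426) and Nap1l4 (1300.0), and the lowest those of Kcnq1ot1 (1.68), Mirg (1.72) and Zim1 (3.13). Snurf and Snrpn share 1 transcript, their values kept a ratio of 0.975 to 0.976 in every library, and they are counted as 2 members but carry 1 measurement. Whole reads, recovered as described with the methods, numbered under 20 in at least 1 library for 6 members, among them Airn (2 to 24 reads), Mirg (2 to 22) and Dlk1 (2 to 35). Libraries held 6603979 to 24605033 recovered reads.

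Most imprinted genes did not pass the study's criterion between the genotypes, and those that did were mainly lower in KO. The criterion was a fold change of 1.5 or more with an unadjusted p under 0.05, here from limma on log2(value + 1) with a term for clone. By it 5 of the 47 fell (Usp29, Meg3, Rian, Sfmbt2 and Kcnq1ot1) and 1 rose (Nnat), against 2.49% and 1.76% of all 13558 transcripts. At an unadjusted p under 0.05 alone there were 7 lower and 1 higher member, Plagl1 and Inpp5f joining those that fell, where 4.46% and 4.62% of all transcripts passed. No member had an adjusted p under 0.05, and the smallest was 0.416. In this fit 0 of the 13558 transcripts had one, with 1232 at an unadjusted p under 0.05. The KO libraries all lay below the WT libraries in 7 members and all above in 1, compared with 4.62% and 5.48% of all transcripts. These 8 were the same genes that had an unadjusted p under 0.05. For Plagl1 the separation was lost once the authors' clone correction was undone.

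**Figure D1:**
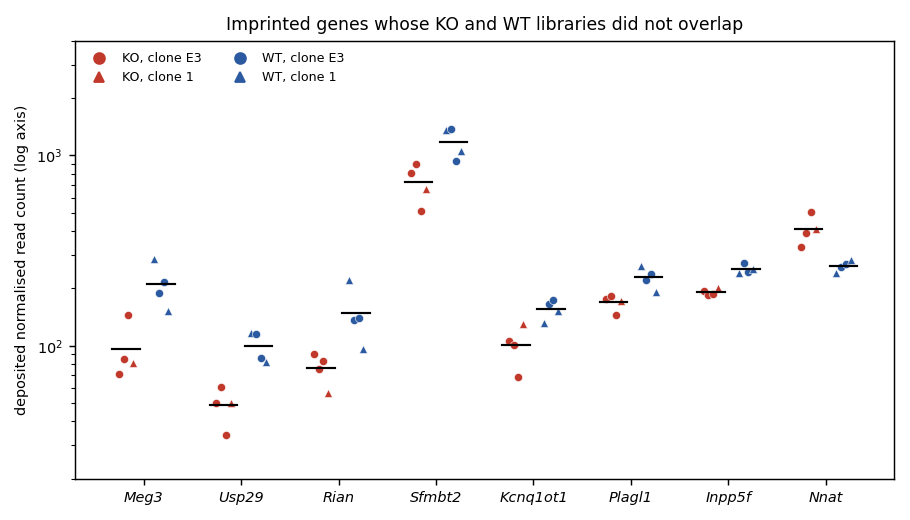
Deposited normalised read counts (log axis) of the 8 imprinted genes whose KO and WT libraries did not overlap, 1 point per library. Red is KO, blue is WT, circles are clone E3, triangles are clone 1, and bars are group means. In this plot 7 genes lie lower in KO and Nnat lies higher.

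By parental origin, 17 of the 23 paternally expressed genes had a negative log2 fold change, with 3 past the criterion (Usp29, Sfmbt2 and Kcnq1ot1), and 6 had a positive one, with Nnat past it. Their median was -0.088. Among the 19 maternally expressed genes 9 were negative, with Meg3 and Rian past the criterion, and 10 positive, with none past it, and the median was 0.0095. The 5 isoform-dependent genes had a median of -0.038 and none past the criterion. Over all transcripts the median was -0.00036, and the median of the paternal list varied between libraries of a group by an SD of 0.14 and that of the maternal list by 0.074, and each list's median was smaller in size than its SD. With day as a block 19 of the 23 paternally expressed genes were negative, Snrpn and Snurf among them as 1 measurement. Their median was -0.15, slightly larger in size than the SD of 0.14, whereas the maternal median was 0.066 and that of all transcripts -0.0031. Each SD is a spread of single libraries, days included, and not the error of a difference between groups. Whether either list shifted as a whole was not tested. All genes past the criterion were among the 33 classed here as imprinted in most tissues, a class with a median of -0.089. Sfmbt2, known for its role in the placenta, was counted in this class. Imprinting itself was not measured in these cells. The 14 classed here as imprinted only in tissues such as placenta or brain had a median of 0.016 and none past the criterion. If Sfmbt2 were counted with them instead, that class too would hold a gene past the criterion. The split by class thus depends on where this gene is placed.

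**Figure D2:**
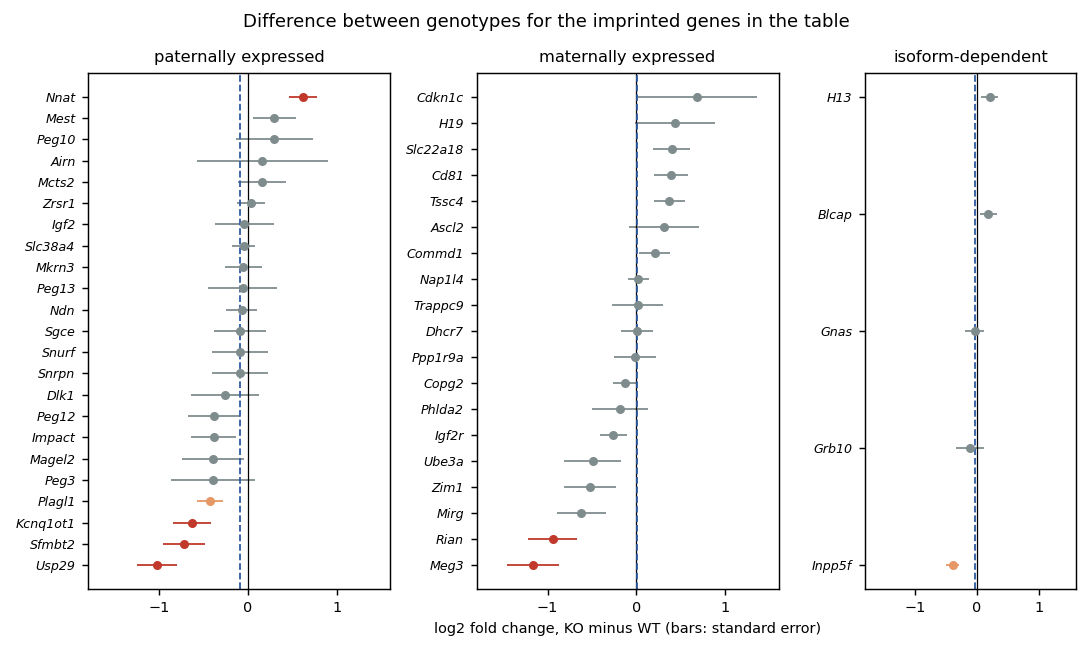
Log2 fold change (KO minus WT, horizontal axis) with its standard error for each of the 47 imprinted genes in the table, in panels by expressed copy. Red points are past the criterion, orange points have only an unadjusted p under 0.05, grey points have neither, and the dashed line is the median of the panel (-0.088, 0.0095 and -0.038).

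The Dlk1/Meg3 domain on chromosome 12 had 4 of its 5 listed genes in the table, and 3 of these, all maternally expressed, had negative log2 fold changes with and without day as a block, with 2 past the criterion. The sign of Dlk1 turned with the block. Meg3 (chr12:109541001-109571726) is a maternally expressed noncoding RNA that begins the transcription of a long series of noncoding RNAs. It stood at 71.1, 85.6, 146 and 81.3 in KO replicates 1 to 4 and at 284, 189, 217 and 151 in WT replicates 1 to 4. The highest KO library, replicate 3, lay just under the lowest WT library, replicate 4. Means were 95.9 ± 33.8 in KO and 210.3 ± 56.0 in WT (mean ± SD, n = 4 each), a fall of 54.4% and a log2 fold change of -1.16 (SE 0.29, adjusted p = 0.445, exact permutation p = 0.0286). It was lower in KO on each of the 3 shared days, by log2 differences of -1.13, -0.57 and -0.89. Leaving out any 1 library kept Meg3 past the criterion.

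Rian (chr12:109603940-109661716), which starts 62939 bases downstream of the Meg3 start and carries small nucleolar RNAs in its introns, ran in parallel. Values of Rian were 91.0, 75.8, 83.5 and 56.6 in KO and 220.2, 136, 139.9 and 95.6 in WT, again without overlap, although the highest KO library and the lowest WT library were close. The log2 fold change was -0.94 (SE 0.28, adjusted p = 0.452). Mirg, farther downstream and host to a large microRNA cluster, stood at 6.96, 4.82, 7.69 and 6.27 in KO and 15.4, 10.1, 11.03 and 6.11 in WT. Its groups overlapped through WT replicate 4 and the log2 fold change was -0.62 (SE 0.28, adjusted p = 0.563). Dlk1, the paternally expressed gene of the domain and a transmembrane relative of the Notch ligands, was listed at 7.02, 21.7, 24.5 and 16.3 in KO and 24.3, 19.2, 18.8 and 15.9 in WT. The groups overlapped at a low level, and the log2 fold change was -0.26 (SE 0.38, adjusted p = 0.836). The negative sign rested on KO replicate 1, which held 2 reads and has no WT library of its day. Without it the value was 0.058, with day as a block it was 0.19, and KO was above WT by 0.17, 0.37 and 0.031 on days 3, 4 and 5. Rtl1 had no row.

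Rian was read from 46 to 305 reads per library and is poor in G and C, at 35.8% where the median transcript had 50.6%. KO replicate 3 was low in transcripts of this kind. The tenth of transcripts lowest in GC had a median log2 deviation of -0.73 there from the mean of the 8 libraries, against -0.023 to 0.26 in the other 7. With a trend on GC and length removed the Rian log2 fold change shrank to -0.43, and to -0.17 with day as a block too. Without KO replicate 4 it was -0.72. In each of these cases, and on untransformed values, the unadjusted p exceeded 0.05. Meg3, at 49.2% GC, kept -0.92 and its call with the trend removed. Fibroblast markers, given above, overlapped between the groups.

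Of the Kcnq1ot1 domain on chromosome 7, 9 of 10 listed genes were in the table, 7 with a positive and 2 with a negative log2 fold change, and only the noncoding RNA itself passed the criterion. Kcnq1ot1 (chr7:143203458-143296549, antisense to Kcnq1) is transcribed from the paternal copy and silences genes of the domain on that copy. It was at 106, 101, 68.8 and 129 in the KO libraries and 132, 166, 175 and 152 in the WT libraries. KO replicate 3 was the lowest, KO replicate 4 nearly reached the WT range, and the log2 fold change amounted to -0.63 (SE 0.22, adjusted p = 0.485). The sign turned to 0.24 with the GC and length trend removed, for a transcript annotated at 93092 bases and 40.3% GC. The call was also lost without WT replicate 2, at -0.56, and without WT replicate 3, at -0.52, and the fold change fell under 1.5 without KO replicate 3, at -0.48. As the kit does not mark strand, reads of Kcnq1ot1 and of the overlapping Kcnq1 cannot be told apart. The same holds for Airn and Igf2r, Peg13 and Trappc9, Mest and Copg2, and Nnat and Blcap where their exons overlap, and the retrogenes Mcts2 and Zrsr1 may share reads with their parent genes.

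Cdkn1c, a maternally expressed inhibitor of cyclin-dependent kinases that the RNA keeps silent on the paternal copy, stood at 191, 222, 196 and 299 in KO and 27.8, 211, 191 and 231 in WT. WT replicate 1 alone was far below the rest, the groups overlapped otherwise, and the log2 fold change was 0.68 (SE 0.68, adjusted p = 0.761). Before the authors' clone correction this library stood at 149, as given with the clones below. Slc22a18, a transporter, Cd81, a tetraspanin, and Tssc4 had log2 fold changes of 0.40 (SE 0.20), 0.39 (SE 0.19) and 0.37 (SE 0.18), none with an unadjusted p under 0.05. With day as a block over the 6 paired libraries, Cd81 (0.39) and Tssc4 (0.31) passed an unadjusted p of 0.05. So did 1345 of all 13558 transcripts as higher in that fit. Phlda2, Nap1l4, Ascl2 and Dhcr7 lay between -0.19 and 0.31. Ascl2 is also among the trophoblast markers.

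The Peg3 domain had 3 of 3 genes with negative log2 fold changes and 1 past the criterion. Usp29 (chr7:6730578-6967219), a ubiquitin-specific protease expressed from the paternal copy, ranked first of the 47 by p-value. It was at 49.9, 60.4, 33.8 and 49.96 in KO and 116, 115, 85.7 and 81.8 in WT, and the highest KO library lay clearly under the lowest WT library. Means were 48.5 ± 10.996 in KO and 99.8 ± 18.6 in WT (mean ± SD, n = 4 each), a fall of 51.4% with a log2 fold change of -1.03 (SE 0.23, adjusted p = 0.416, exact permutation p = 0.0286). On the 3 shared days it was lower by -0.92, -1.32 and -0.70 in log2, every fit that left out 1 library kept it past the criterion, and so did removing the GC and length trend, at -0.80.

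Peg3 (chr7:6703892-6730431), a zinc-finger protein whose start faces that of Usp29 across the 163 bases shown in capitals above, was among the most abundant members. It stood at 5937, 10002, 2617 and 7393 in KO and 7859, 12685, 4974 and 7989 in WT. The lowest library of each group was replicate 3, both of day 4, the groups overlapped widely, and the log2 fold change was -0.40 (SE 0.47, adjusted p = 0.799). Zim1, a maternally expressed zinc-finger gene, had -0.52 (SE 0.29, adjusted p = 0.622). Whether the log2 fold changes of Usp29 and Peg3 differ from each other was not tested.

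Among single paternally expressed genes, Sfmbt2, a Polycomb-group protein known for its role in the placenta (chr2:10370510-10595253), fell. Its values were 804, 902, 512 and 666 in KO and 1363, 1370.3, 932 and 1049 in WT. KO replicate 2 was just under WT replicate 3, the lowest of its group, and the log2 fold change was -0.72 (SE 0.23, adjusted p = 0.469). Each of days 3, 4 and 5 had the lower value in KO, by -0.60, -0.86 and -0.65. The unadjusted p rose above 0.05 without KO replicate 4, at -0.65, and without WT replicate 2, at -0.59, and the fold change was under 1.5 without KO replicate 3, at -0.58, and with the GC and length trend removed, at -0.51.

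Plagl1 (chr10:13060504-13131694), a zinc-finger transcription factor that regulates other imprinted genes, stood at 177, 182, 145 and 171 in KO and 262, 221, 238 and 192 in WT. The groups did not overlap in these deposited values, but the difference was small, with a log2 fold change of -0.43 (SE 0.15, adjusted p = 0.485). With the clone correction undone they overlapped, as KO replicate 4 (221) lay above WT replicates 2 (171) and 3 (188). Its unadjusted p missed 0.05 with day as a block (-0.39), after removal of the GC and length trend (-0.31), without KO replicate 4 (-0.45) and without WT replicate 3 (-0.40). Inpp5f (chr7:128611328-128696425), an inositol phosphatase with a paternally expressed isoform in the brain, had tight groups. It was at 194, 185, 186 and 201 in KO and at 242, 271, 243 and 254 in WT. Means were 192 ± 7.37 in KO and 252 ± 13.6 in WT (mean ± SD, n = 4 each), and the log2 fold change was -0.39 (SE 0.10, adjusted p = 0.446). With the GC and length trend removed Inpp5f was at -0.26. Joined to the day block this was -0.24, where the unadjusted p exceeded 0.05. Since reads were summed over its isoforms, the imprinted one was not seen apart.

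Nnat (chr2:157560078-157562522), a small paternally expressed membrane protein of neurons and endocrine cells, was the 1 member that rose. It stood at 329.8, 391.8, 501.2 and 410.2 in KO and 242, 259.5, 269 and 282 in WT. All 4 KO libraries lay above the WT libraries, which were close together, and KO replicate 3 was the highest. Means were 408 ± 70.9 in KO and 263 ± 17.0 in WT (mean ± SD, n = 4 each), with a log2 fold change of 0.62 (SE 0.16, adjusted p = 0.446, exact permutation p = 0.0286), and each shared day had the higher value in KO, by 0.59, 0.90 and 0.54. The fold change was under 1.5 without KO replicate 3, at 0.53, without WT replicate 1, at 0.58, and with the GC and length trend removed, at 0.46. Nnat lies in an intron of Blcap, which had 0.18 (SE 0.13, adjusted p = 0.685). Of the 5 neural markers present, 1 had a positive log2 fold change and none a higher level in KO by the criterion, and Nes (nestin) had an unadjusted p under 0.05 (log2 fold change -0.50, adjusted p = 0.46).

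No member of the Igf2 growth axis passed the criterion between the genotypes. The ligand Igf2 (chr7:142650766-142666816), paternally expressed, was at 394, 338, 414 and 546 in KO and 229, 569, 452 and 546 in WT. WT replicate 1 was the lowest of all 8 in these deposited values, the groups overlapped fully, and the log2 fold change was -0.043 (SE 0.33, adjusted p = 0.972). With the clone correction undone it stood at 293, and KO replicate 2, at 275, was the lowest. Igf2r (chr17:12682406-12769664), the maternally expressed receptor that clears the ligand, stood at 1246, 1591, 1793 and 1578 in KO and 2015, 1776, 1951 and 1661 in WT. KO replicate 3 lay inside the WT range and the log2 fold change was -0.26 (SE 0.15, adjusted p = 0.642). Airn, the noncoding RNA antisense to Igf2r, was listed at the floor of 1 in WT replicate 1 and had 2 to 24 reads, so little can be read from its log2 fold change of 0.16 (SE 0.74). Grb10 (chr11:11930508-12038683), an adaptor that dampens insulin and IGF signalling, had 494, 643, 965 and 681 in KO and 727, 805, 651 and 758 in WT, with overlap and -0.11 (SE 0.22, adjusted p = 0.881).

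H19 (chr7:142575529-142578143), the maternally expressed noncoding RNA that shares enhancers with Igf2, was uneven between the clones inside each genotype. The deposited values were 1431, 1322, 1323 and 2311 in KO and 1295, 1702, 1466 and 444 in WT. KO replicate 4 was the highest and WT replicate 4 the lowest, both clone 1 and day 5, while the other 6 lay between 1295 and 1702. Its log2 fold change over all libraries was 0.43 (SE 0.45, adjusted p = 0.77), and -0.0077 with the clone correction undone. In the deposited values KO exceeded WT by 1.61 in log2 in clone 1, and in clone E3 it was at -0.22. These sizes depend on the clone correction. With it undone, WT replicate 4 stood at 1301, beside 2152 in WT replicate 1 and 3168 in KO replicate 4. The difference between the clones in KO minus WT was then 1.44, against 1.82 in the deposited values. The interaction of genotype and clone, 1.82 (SE 0.71), passed an unadjusted p of 0.05, with an adjusted p of 1.000 by limma, and rested on the 1 KO library of clone 1. H19 was the 1 member of 47 with an unadjusted p under 0.05 in that test, in which 2.59% of all transcripts passed.

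The remaining leading genes overlapped between genotypes. Snrpn (chr7:59982495-60140219), the paternally expressed splicing protein SmN, stood at 1559, 1699.5, 896 and 1234 in KO and 1529.7, 1951, 873 and 1520.4 in WT, and Snurf, read from the same transcript, at 1521, 1658, 874 and 1204 and 1492, 1902, 852 and 1483. Replicate 3 was the lowest of both groups, and the log2 fold change of Snrpn was -0.089 (SE 0.32, adjusted p = 0.938). All 7 genes of this domain, homologous to the human Prader-Willi and Angelman region, had negative values between -0.49 (Ube3a) and -0.055 (Mkrn3), with none past a p of 0.05, and Snrpn and Snurf among them are 1 measurement. The sign did not hold for each gene under other settings. Magel2 was at 0.0076 with day as a block (0.059 when voom was used too). Once the GC and length trend was removed, Ndn was at 0.039, while Ube3a shrank to -0.055 and kept its sign. Ube3a and Peg12 were negative in all 21 settings. Snrpn, Snurf, Ndn and Mkrn3 were negative in 18 of 21, and Magel2 in 18 of 20. Peg10 (chr6:4747306-4760517), a retrotransposon-derived gene needed in the placenta, was at 9365, 10931, 9387 and 13992 in KO and 3553, 12950, 9140.5 and 12391 in WT. Apart from a low WT replicate 1 the groups covered the same range, with a log2 fold change of 0.29 (SE 0.43, adjusted p = 0.836). With the clone correction undone this library stood at 6077, near WT replicate 3 (6616) and KO replicate 1 (6841). Mest (chr6:30723547-30748465), an enzyme-like protein of the mesoderm, had 2470.3, 3108, 2197 and 2499.9 in KO and 1994, 2841, 1421 and 2405 in WT, an overlap, and 0.29 (SE 0.24, adjusted p = 0.714). Impact, a regulator of translation under amino acid shortage, was at 2045, 1993, 1011 and 1779 in KO and 2251, 2493, 1932 and 2031 in WT. KO replicate 3 was well below the rest, and the log2 fold change was -0.39 (SE 0.26, adjusted p = 0.667). The 27 members whose libraries are not listed one by one under the rule for named genes lay between -0.62 (Mirg) and 0.40 (Slc22a18) in log2, and none had an unadjusted p under 0.05.

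Of the 47, with day as a block over days 3, 4 and 5, again 5 were lower and 1 higher by the criterion, and they were the same 6 genes. In that fit 4.35% and 3.13% of all transcripts passed in these directions. At an unadjusted p under 0.05 alone 6 members were lower and 3 higher, where 1256 and 1345 of all 13558 transcripts were. The smallest adjusted p of a member was 0.199. The plot of fold changes under 5 ways of processing shows that 7 of the 8 genes kept their sign in each of them and that Kcnq1ot1 did not.

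**Figure D3:**
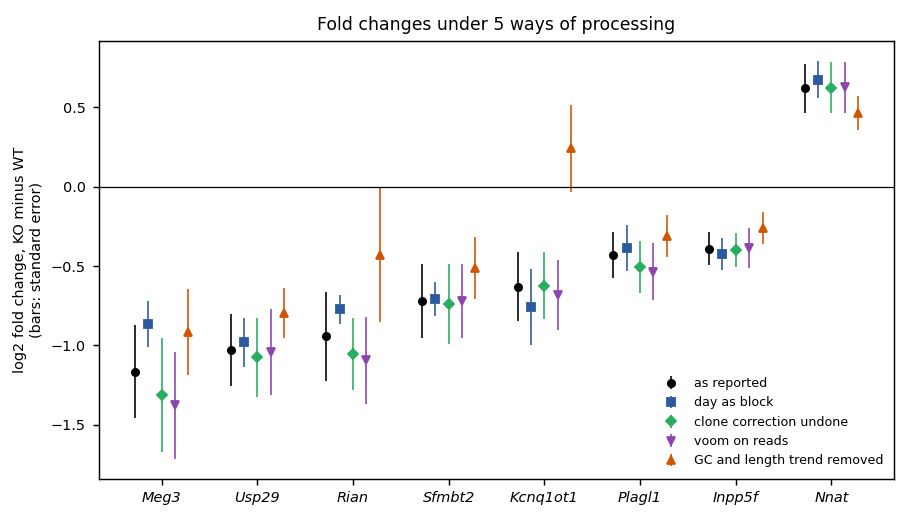
Log2 fold change (KO minus WT, vertical axis) with its standard error for the 8 genes with an unadjusted p under 0.05, under 5 ways of processing. Meg3 and Usp29 lie below 0 throughout, and after removal of the GC and length trend Rian is at -0.43 and Kcnq1ot1 at 0.24.

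Clones were compared on normalised counts rebuilt from the recovered reads, because the deposited values had the mean difference between the clones removed. The comparison set 3 libraries of clone 1 against 5 of clone E3 with a term for genotype. Clone 1 libraries were of days 1 and 5 and clone E3 libraries of days 2 to 4, so clone and day cannot be told apart, and each clone is a single line. By the same criterion 6 of the 47 were higher in clone 1 (Cdkn1c, H19, Mirg, Rian, Slc22a18 and Plagl1) and 3 lower (Snrpn, Snurf and Magel2), where 3.12% and 1.06% of 13449 transcripts passed. In 7 members every clone 1 library lay above every E3 library and in 2 below, compared with 3.98% and 3.96% of transcripts. Again 0 members had an adjusted p under 0.05 by limma, with 10 at an unadjusted p under 0.05, and 0 of the 13449 transcripts had one, with 1120 at an unadjusted p under 0.05. Without KO replicate 4, 4 members passed (Cdkn1c, H19, Plagl1 and Rian), all higher in clone 1.

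Cdkn1c differed most. In clone E3 it stood at 69.2, 101, 74.9, 89.8 and 69.9 (KO replicates 1 to 3, then WT replicates 2 and 3), and in clone 1 at 420.1, 149 and 353 (KO replicate 4, then WT replicates 1 and 4). Clone 1 was higher throughout, 3.80-fold in the means, with a log2 difference of 1.88 (SE 0.34, adjusted p = 0.45). Its KO and WT values inside clone E3 covered the same range. WT replicate 1, deposited at 27.8, came to 149, above all E3 libraries.

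H19 had 574, 465, 466, 845 and 609 in clone E3 and 3168, 2152 and 1301 in clone 1, in the same order of libraries. No clone 1 library came near the E3 range, the means differed 3.73-fold, and the log2 difference was 1.84 (SE 0.34, adjusted p = 0.465). Leaving out 1 library in turn gave 1.22 to 2.16 for H19 and 1.52 to 2.26 for Cdkn1c. Igf2, which shares the domain with H19, had 330.3, 275, 350.4, 506 and 389 in clone E3 and 609, 293 and 609 in clone 1. WT replicate 1 lay among the E3 libraries, so the clones overlapped at a log2 difference of 0.36 (SE 0.32, adjusted p = 0.781). Both the KO and the WT libraries of clone 1 had the higher H19.

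Snrpn went the other way, with 2007, 2148, 1344, 2399 and 1322 in clone E3 and 785, 1081 and 1072 in clone 1. Every clone 1 library was lower, by a log2 difference of -0.93 (SE 0.26, adjusted p = 0.519), and Snurf had the same value since it shares the reads. Magel2, of the same domain, had -0.87 (SE 0.33, adjusted p = 0.584) with overlap, whereas Ndn, Mkrn3, Peg12 and Ube3a had p-values above 0.05. Without KO replicate 4 the calls of Snrpn, Snurf and Magel2 were lost, so that none of the lower calls was left. For Rian the values were 55.5, 40.3, 48.1, 100.4 and 104 in clone E3 and 92.0, 256 and 131 in clone 1, a difference of 0.88 (SE 0.23, adjusted p = 0.518) in which KO replicate 4 lay below 2 WT libraries of E3. Plagl1 had 127, 132, 95.2, 171 and 188 and 221, 313 and 242, without overlap at a log2 difference of 0.75 (SE 0.17, adjusted p = 0.51). Fitted on values with the clone correction undone, KO minus WT was -1.05 for Rian, -0.80 for Mirg, -0.51 for Plagl1 and -1.31 for Meg3.

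**Figure D4:**
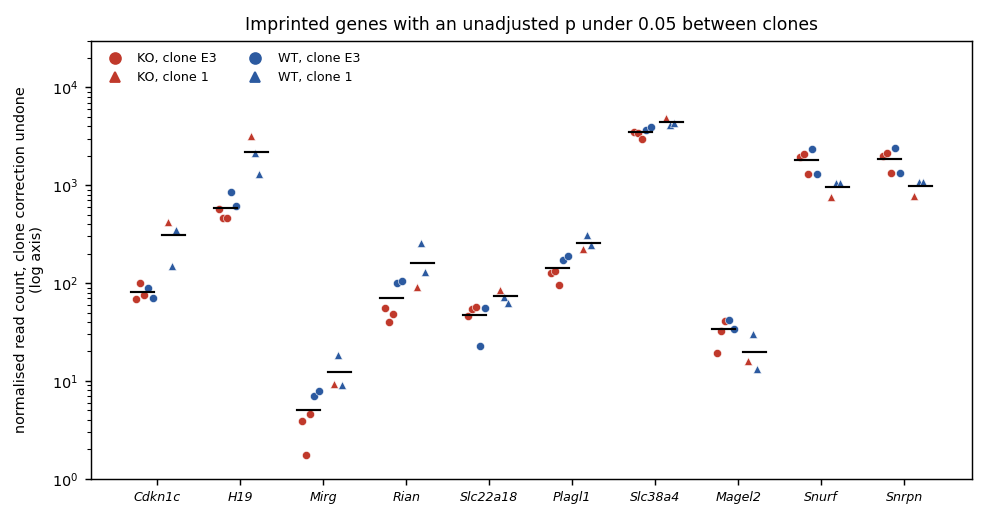
Normalised read counts (log axis) with the clone correction undone for the 10 imprinted genes with an unadjusted p under 0.05 between clones, 1 point per library. Clone E3 (circles) is left and clone 1 (triangles) right for each gene, red is KO, blue is WT, and bars are clone means. H19 and Cdkn1c lie higher and Snrpn and Snurf lower in clone 1.

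A list of 22 genes was drawn up for the upkeep of imprints, and 22 were in the table, among them Zfp57, Trim28 and Dnmt1. Not all of them keep imprints. The list also holds genes that set DNA methylation, such as Dnmt3a and Dnmt3l, or remove it, such as Tet1, Tet2 and Tet3. The criterion was passed by 1, the lower Aff3, a protein that binds imprinted control regions, where 2.49% of all transcripts passed as lower. Aff3 was at 56.9, 75.2, 117 and 75.7 in KO and 148, 113, 127 and 103 in WT, overlapping through KO replicate 3, with a log2 fold change of -0.63 (SE 0.24, adjusted p = 0.518). By unadjusted p alone Ehmt2, a histone H3 lysine methyltransferase, joined it, higher by 0.38 (adjusted p = 0.518). With day as a block the call moved to other genes. Aff3, at -0.39, was under the fold of the criterion. It was passed by 2 lower genes, the chromatin protein Arid4a (-0.86) and the chromatin remodeller Hells (-0.61), where 4.35% of all transcripts passed as lower. In that fit Ehmt2 (0.44) and Tet3 (0.47) were higher and Aff3 and Kdm1b (-0.41) lower at an unadjusted p under 0.05 without reaching the criterion. Of all 13558 transcripts 2601 had such a p there. All KO libraries lay below all WT libraries for Arid4a (193 to 484 against 485 to 723), Smchd1 and Ctcf, none of which passed the criterion without the block. Such a separation held for 4.62% of all transcripts. The median of the 22 was -0.18, or -0.10 with the block, beside -0.00036 for all transcripts.

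In the insulin-like growth factor axis 11 of 12 genes were in the table, 0 passed the criterion by limma, 1 had an unadjusted p under 0.05, and 11 of 11 log2 fold changes were negative with a median of -0.24. With day as a block this was 9 of 11 with a median of -0.28, as Irs2 (0.11) and Igfbp2 (0.029) turned positive. Irs1 (-0.30), an adaptor of the insulin receptor, also had an unadjusted p under 0.05 there, as did 2601 of all 13558 transcripts. Igf2bp3, an RNA-binding protein named for the Igf2 transcript, was the 1 with an unadjusted p under 0.05 without the block, at -0.58 (adjusted p = 0.54). Of 32 genes that neighbour the imprinted domains 25 were in the table, and 1 passed the criterion as higher, as did 1.76% of all transcripts. It was Begain, which adjoins the Dlk1/Meg3 domain and encodes a protein of the synapse. It stood at 48.9, 60.9, 65.0 and 75.2 in KO and 28.1, 40.9, 44.6 and 32.0 in WT, without overlap and opposite to Meg3, with a log2 fold change of 0.74 (SE 0.20, adjusted p = 0.452). The median of the 25 neighbours was 0.060.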

How the data were processed

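Poly(A) mRNA of 8 mES cell libraries (4 KO, 4 WT; TruSeq, not strand-specific) was sequenced in pairs of 100 bases. Per the study's methods and the submitters' processing notes, the authors used CASAVA 1.8, TopHat2 with Bowtie2 2.2.1 on mm10, Partek 6.6 and DESeq2. The deposited signal is a DESeq2-normalised read count per RefSeq transcript, from which the authors removed the mean clone effect additively and set lower values to a floor of 1. Transcripts whose higher group mean was under 10 are not in the table.

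Undoing that shift gave whole reads for 13449 of 13558 transcripts (99.2%; 100% of the values were given back within printed precision), including the 47 members. Simulated data gave unique solutions for 99.5%, all right. Tests used limma 3.58.1 (R 4.3.3) on log2(value + 1) with clone as a term and Benjamini-Hochberg adjustment over all transcripts. Exact two-sided permutation ran over 70 assignments. On simulated counts (dispersion 0.1) 193 of 200 changed and 6 other transcripts of 13449 were called. The 200 had a median fitted size of 2.04 in log2. Whether sizes as small as those of the members would be called was not tested. Coordinates, exonic length and GC content are from GENCODE vM21 (GRCm38). Members and gene lists were chosen with earlier results of these data known. Values of every library are printed for members past the criterion with or without day as a block, those without overlap, 14 leading genes and the 5 with the largest clone difference at a mean of at least 20. Days 3, 4 and 5 pair libraries per the labels; with the clone correction undone, same-day deviations from the group means correlated by 0.52 to 0.63 (-0.23 to 0.54 in the deposited values). Alternatives were another pseudocount, filters, no clone term, untransformed values, another prior, day as a block, voom on recovered reads, GC and length trend removal, and leaving out each library.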

Additional observations from a re-analysis of the deposited data

Results flagged for a closer look

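H19 in KO replicate 4 was listed at 2311, far above the other KO libraries at 1322 to 1431, by Dixon's criterion for groups of 4. It was 1 of 40 groups of 4 values checked, where chance gives about 2. With the clone correction undone it stood at 3168, against 465 to 574 in the other KO libraries, which are of clone E3. For H19 the difference between KO and WT was also larger in clone 1 than in clone E3, by 1.82 in log2 (interaction with an unadjusted p under 0.05, adjusted p = 1.000 by limma). With the clone correction undone this was 1.44. Clone 1 has 1 KO library, so the library and the clone cannot be told apart here.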

How the results depend on the processing

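Over the 21 settings no member reached an adjusted p under 0.05 in the genotype test. The 6 members past the criterion fell to 2, Meg3 and Usp29, once the GC and length trend was taken out, and also when this was combined with the replicate block by day, and those with an unadjusted p under 0.05 (8) to 5 in both. That second count was higher in other settings, at 11 without the clone term and 12 with voom and the block. Mirg passed the criterion as a seventh member without the clone term, with the clone correction undone and without WT replicate 4, and Slc22a18 passed it without WT replicate 3. Leaving out 1 library gave from 3 to 7 past the criterion (3 without KO replicate 3, 4 without KO replicate 4 or WT replicate 2), from 5 to 9 with an unadjusted p under 0.05 (5 without KO replicate 4), a paternal median from -0.21 to 0.012 and a maternal one from -0.16 to 0.011. The interaction count of 1 went from 0 to 6 (6 without WT replicate 4) and could not be fitted without KO replicate 4. Apart from Kcnq1ot1, sign changes fell on genes without a call. Kcnq1ot1 turned to 0.24 once that trend was taken out, and H19 to -0.0077 with the clone correction undone. Under the replicate block by day alone, then joined to voom, then joined to the removal of the trend, Dlk1 was at 0.19, 0.28 and 0.14 and Grb10 at 0.030, 0.066 and 0.13. Peg10 was at -0.010 and -0.035 in the first pair of these, and Cdkn1c at -0.081 in the last. Leaving out 1 library gave ranges through 0 for Dlk1 (-0.44 to 0.058), Grb10 (-0.27 to 0.023), H19 (-0.22 to 0.70), Igf2 (-0.41 to 0.16), Peg3 (-0.70 to 0.012), Peg10 (-0.14 to 0.57), Snrpn (-0.43 to 0.18) and Snurf (-0.43 to 0.18). Apart from these, of the values of named genes 2 gained a p under 0.05 (Peg3 and Impact, with voom and the block) and 15 lost one. The day block changed the call of Plagl1 among the 8 and of no other of them, and added Cd81 and Tssc4. Causes were not tested. Depth limits Airn, Mirg and Dlk1, with as few as 2 reads in a library.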
